A study of Mus musculus with 16 samples.

Results

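The Hox cluster genes were the 39 protein-coding genes of GENCODE mouse M21 whose symbol begins with Hoxa, Hoxb, Hoxc or Hoxd and a number, out of 21938 protein-coding genes in all. They lay in 4 clusters of 11 (Hoxa), 10 (Hoxb), 9 (Hoxc) and 9 (Hoxd) genes. Chromatin was read as the presence of a start peak, meaning an ATAC-seq peak with any base within 1000 bp of an annotated transcript start of the gene. Of the 39 genes, 29 had a start peak in at least 1 of 16 libraries and 10 had none in any library. No Hox gene had one in more than 6 libraries.

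Hox genes encode homeodomain transcription factors that give cells of the embryo their position along the body axis, and their order along each chromosome follows the order of their expression from head to tail. In cells that do not use them, the clusters are typically held silent by Polycomb complexes, which place a repressive methyl mark on histones, and the MLL proteins of the Trithorax group counteract this. In blood, several Hoxa and Hoxb genes are active in stem and progenitor cells and are shut down as cells mature.

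ATAC-seq, in which a transposase cuts and tags open DNA, was performed on mouse T cells to ask how loss of the pyruvate dehydrogenase complex alters their chromatin. The 16 libraries formed 4 groups of 4 replicates by genotype (WT or TPdh-/-) and culture (TE or TM). Per the study's methods, OT-I cells, CD8+ T cells with a fixed receptor for an ovalbumin peptide, were activated with that peptide and then cultured with IL-2 to give effector (TE) cells or with IL-15 to give memory (TM) cells. TPdh-/- mice carried floxed Pdha1 (B6.129P2-Pdha1tm1ptl/J) and a CD4-Cre transgene, and WT samples were labelled TPdh+/+. CD4-Cre acts from the thymus onward, so the deletion was not induced in culture. Adult mice of both sexes were used in the study, and the labels give neither age nor sex for a sample. They do not say whether the 4 samples of a group came from separate mice or cultures, so the p-values below measure only the spread between these samples, which may be technical. The libraries were bulk, so fewer open cells and less opening per cell cannot be told apart.

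Peak lists differed widely in length and depth. WT TE lists held 2290 to 19234 peaks, TPdh-/- TE 32906 to 78635, WT TM 13304 to 54892 and TPdh-/- TM 60189 to 86637. Background coverage, the average depth of fragments along the genome as estimated from each list, was 0.636 to 1.55 in WT TE and 0.173 to 0.572 in the other libraries. No peak of a WT TE list had 4 or fewer fragments over its summit, against 63.5% to 69.6% of the peaks in TPdh-/- TM. This difference ran through every comparison with WT TE below. The TM groups did not overlap in list length either, nor in background coverage, which was 0.354 to 0.572 in WT TM and 0.186 to 0.261 in TPdh-/- TM. Their comparison thus also carries a difference in depth and list length. Pdha1 itself had a start peak in 6 libraries, 3 of them TPdh-/- TM and 1 from each other group. A promoter peak outside the deleted part does not check the deletion. Of 10 T cell markers, 9 had a start peak somewhere, in 26.2% of gene and library pairs. None of the 10 starts was CpG-rich by the criteria given below, and the share was 13.9% over all genes of that kind and 20.9% over all protein-coding genes. Cd8b1 had one in 8 libraries, Cd3d, Lck and Zap70 in 6 each, Ptprc and Thy1 in 4, Cd3g and Cd8a in 3, and Cd3e in 2, with Cd2 in none. Cd4 and both NK markers had none, and B cell and myeloid markers had one in 5% and 7.5% of pairs. Csf1r had one in 4 libraries and Itgam and Ms4a1 in 2 each, with Cd79a, Lyz2, Cd68 and Adgre1 at 0. Pax5, in 1 library, counts both as a B cell marker and among the developmental factors below.

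The Hox promoters were only in part CpG-rich by the criteria used, a GC content of at least 0.55 and an observed over expected CpG ratio of at least 0.65 in the 1000 bases around the 5' end of the gene. 17 of the 39 Hox genes met both, against 34.8% of all protein-coding genes. When any annotated start could meet them, a criterion added after the data were seen, 23 of 39 did. The median GC content of the Hox starts was 57.5% and the median CpG ratio 0.679, between the values of all genes (54.8% and 0.553) and of CpG-rich genes (62.9% and 0.811). Hoxb2 was the poorest in CpG, with a ratio of 0.181, and Hoxa5 the richest, with 0.995. Hoxa5 missed the GC criterion at 54.6%.

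Start peaks were rarer at Hox genes than at genes in general. A Hox gene had a start peak in 59 of 624 gene and library pairs (9.46%), against 20.9% for all protein-coding genes, 33.9% for the 7628 CpG-rich ones and 13.9% for the other 14310. The 17 CpG-rich Hox genes had one in 7.72% of pairs, and the 22 that are not CpG-rich in 10.8%, so the gap was smaller among genes that are not CpG-rich. Other developmental factor genes, 43 genes of families such as Dlx, Lhx, Nkx and Pax, were closer to the Hox genes at 11.6%, and the ParaHox and Evx genes were at 6.25%. A Hox gene that had a start peak usually had it in few libraries: 14 genes in 1 library, 7 in 2, 5 in 3 and 3 in 4 or more. None of the Hox genes had one in 8 or more libraries, against 28.6% of CpG-rich genes and 2.33% of the developmental factors. The 10 genes without any were Hoxa3, Hoxa5, Hoxa6, Hoxb1, Hoxb8, Hoxc11, Hoxc12, Hoxc13, Hoxd9 and Hoxd13, 5 of them CpG-rich.

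**Figure D1:**
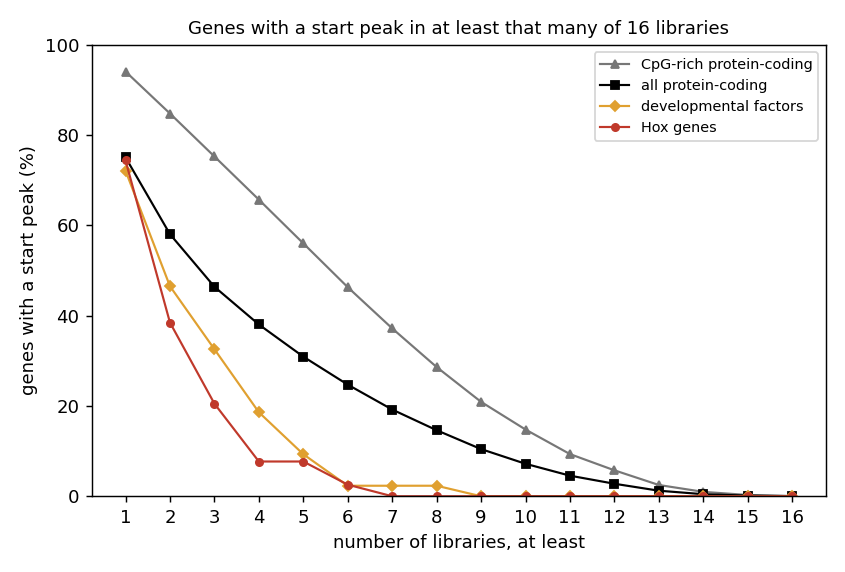
The percent of genes (y axis) with a start peak in at least the number of libraries on the x axis, for Hox genes, all protein-coding genes, CpG-rich protein-coding genes and other developmental factors. Hox genes begin near all genes, with 74.4% held at least once, and fall to 7.69% at 4 libraries and 0 at 7.

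The number of Hox genes with a start peak differed between libraries. In WT TE the 4 replicates had 0, 1, 0 and 0 of 39 Hox genes. TPdh-/- TE replicates had 5, 3, 10 and 4. In WT TM the numbers were 6, 2, 3 and 0, and in TPdh-/- TM they were 6, 5, 7 and 7. Means were 0.25 ± 0.50 (SD, n = 4), 5.5 ± 3.11, 2.75 ± 2.5 and 6.25 ± 0.957 in the same order. The TPdh-/- TE and WT TE counts did not overlap, and those of the TM groups did. The order of the TM groups rested on weaker peaks: the means were 0.75 in WT TM and 0.50 in TPdh-/- TM at a −log10 q of at least 5, and 1.25 in both at a fold of at least 5.

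Promoters in general did not show this gap between the TE groups. All protein-coding genes had a start peak in 18.8% ± 7.43 (SD, n = 4) of cases in WT TE and in 19.5% ± 10.2 in TPdh-/- TE, and CpG-rich genes in 34.3% ± 13.1 and 29.7% ± 16.6. Start peaks were a larger part of the WT TE lists, 26.5% to 69.7% of peaks, than of the other lists, where they were 5.79% to 13.8%. Genes that are not CpG-rich had one in 10.5% ± 4.5 (SD, n = 4) of cases in WT TE and 14% ± 6.83 in TPdh-/- TE. Developmental factors behaved like Hox genes, with 0 to 2 of 43 genes per library in WT TE and 3 to 8 in TPdh-/- TE. The 9 ParaHox and Evx genes had no start peak in either TE group. Of the 21 Hox start peaks of TPdh-/- TE, 7 had 4 or fewer fragments, a class of peak that the WT TE lists do not hold. The other 14 had more, up to 11, where the median pileup of a WT TE list was 7 to 15. The cut at 4 therefore does not tell whether those 14 could have been called at the depth of WT TE. Requiring a fold enrichment of at least 5 left a mean of 2 Hox genes in TPdh-/- TE and 0 in WT TE. At a −log10 q of at least 5 the means were 0.75 (0 to 2 per library) and 0, so the groups then overlapped. With every list cut to its best 2290 peaks, no Hox gene had a start peak in either group. The part that depth and list length play in this difference was not tested, nor whether all lists were called with the same settings. The study's methods give 1 set of calling options for all lists. The lowest −log10 q of a list lay between 1.3 and 1.33 in all 16, and WT TM replicate 3, with a background coverage of 0.572, also held no peak of 4 or fewer fragments.

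**Figure D2:**
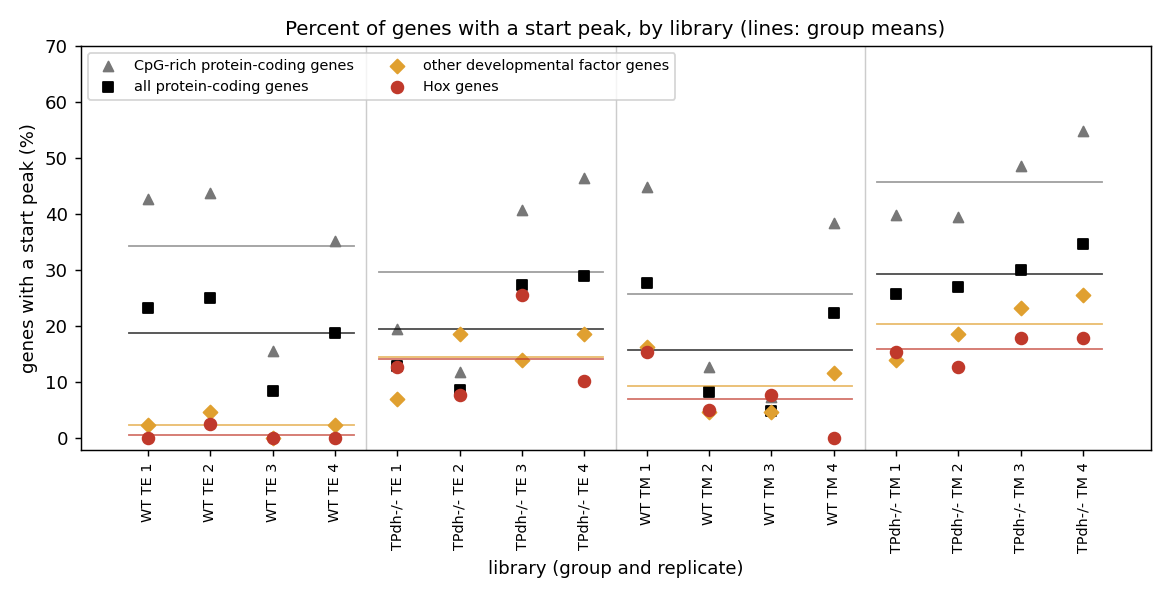
The percent of genes with a start peak (y axis) in each of the 16 libraries (x axis), for Hox genes, all protein-coding genes, CpG-rich genes and other developmental factors, with group means as lines. The Hox points lie below those of all genes in 15 of 16 libraries, and at 0 in 3 of the 4 WT TE libraries and in WT TM replicate 4.

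Within libraries, the percent of Hox genes with a start peak was lower than that of all genes in 15 of 16 libraries, by a median of 12.3 percentage points (Hox minus all genes, -23.2 to 2.87). The exception was WT TM replicate 3, where 3 of 39 Hox genes (7.69%) compared with 4.82% of all genes. That library had the fewest genes with a start peak of all. Hox genes were also below CpG-rich genes in 15 libraries and below the genes that are not CpG-rich in 12. Against the developmental factors they were lower in 10 libraries, higher in 5 and equal in 1. Summits per base gave the same order: within the start windows of Hox genes their density was a median 1.5 times that of the genome (0 to 4.69), against 3.00 times for all start windows (1.47 to 18.8), 4.10 for CpG-rich ones and 1.66 for developmental factors. The ratio of all start windows was the higher in 14 of 16 libraries, and that of Hox genes in WT TM replicate 3 (4.69 against 1.94) and in TPdh-/- TE replicate 3 (2.12 against 2.09).

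There were 59 distinct Hox start peaks, 126 to 582 bp wide with a median of 198 bp. Summit pileup, the number of fragments over the summit, ran from 3 to 15 with a median of 5, and 28 of the 59 peaks had 4 fragments or fewer. Fold enrichment over the local background ran from 3.01 to 9.0 with a median of 4.06, and 17 peaks reached 5. The −log10 q of the peak caller ran from 1.3, the floor of the lists, to 11.1 with a median of 2.39, and 8 peaks reached 5. Compared with the other start peaks of the same library, 33 of the 59 lay below the median fold enrichment, and 7 were among the top 10% of their whole list by −log10 q. The median Hox fold was above that of all start peaks in the 4 TPdh-/- TE libraries and in WT TM replicates 2 and 3, and below it in the other 6 libraries with a Hox start peak. Pileups were lowest in TPdh-/- TM, where 19 of 26 Hox start peaks had 4 or fewer fragments, and 2 of 11 had so few in WT TM. The whole lists differed in the same way, with 63.5% to 69.6% of all peaks at 4 or fewer in TPdh-/- TM and 0 to 31.4% in WT TM.

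**Figure D3:**
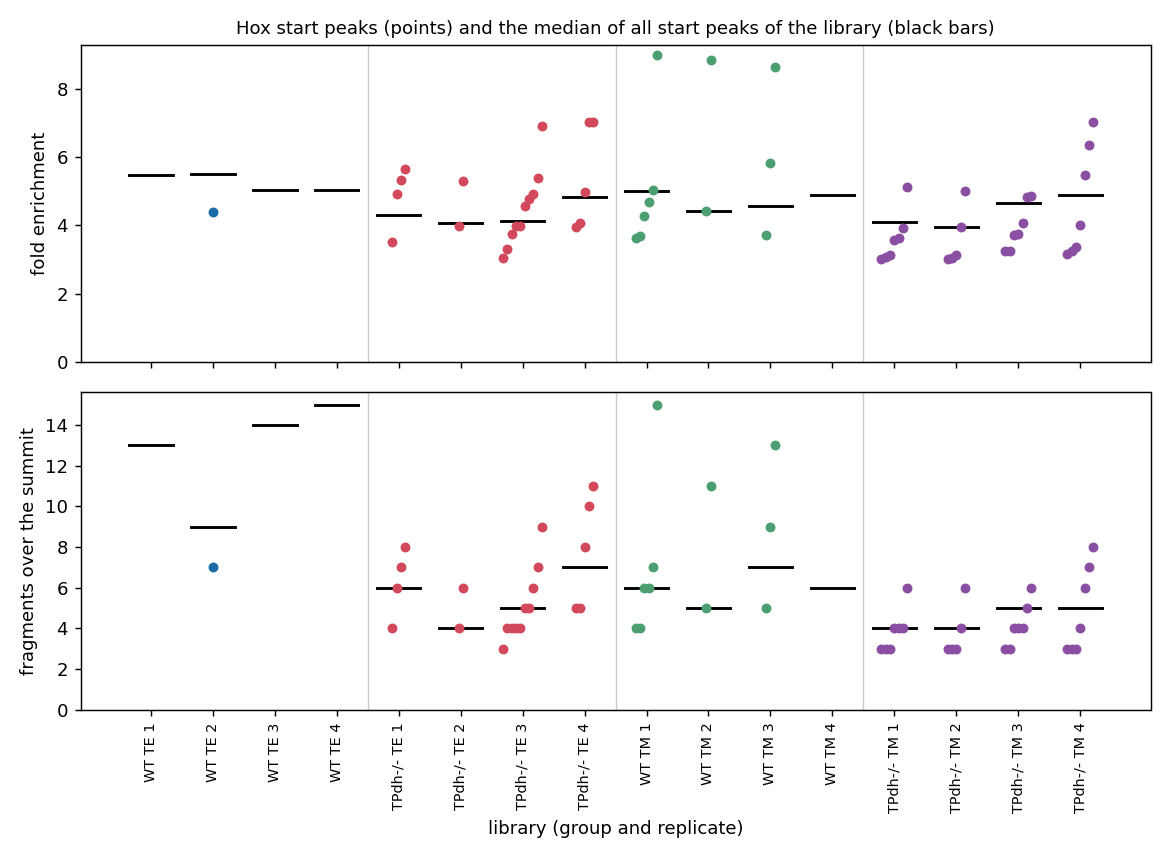
Fold enrichment (upper panel) and fragments over the summit (lower panel) of each Hox start peak (points) in the 16 libraries (x axis), with the median of all start peaks of that library as a black bar. The highest point of WT TM replicates 1, 2 and 3 lies at a fold of 9.0, 8.86 and 8.65, while most points elsewhere lie between 3 and 6.

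Few of these peaks sat on a start itself. Of 62 gene and peak pairs, 11 peaks covered an annotated start, 33 came within 500 bp and 18 lay farther off. Summits were upstream of the nearest start in 41 pairs and downstream in 21. The 39 genes had 83 annotated starts, and 23 genes had several. Neighbouring genes shared 3 peaks: 2 served both Hoxc10 and Hoxc5, which has a start 647 bp from that of Hoxc10, and 1 served Hoxd3 and Hoxd4, whose first starts are 2 bp apart. In 3 gene and library pairs the gene had 2 peaks.

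Stretches under a peak of Hoxb3, Hoxc4 and Hoxa7, 3 of the genes described next, are printed here, with the bases before Hoxa5 for contrast, chosen after its values were seen as the gene with the highest CpG ratio and no peak in any library. Each line is the reference sequence of GRCm38.p6 (RefSeq), 5′ to 3′ on the strand of the gene, with the CpG dinucleotides in capitals. That of Hoxb3 lies in an intron under the peaks of WT TM replicates 1 and 3 (chr11:96323814-96324113, plus strand). The Hoxc4 sequence is the intron end under a peak of WT TM replicate 1 and of no other library (chr15:103033872-103033966, plus strand). For Hoxa7 it is an intron stretch under the highest Hox peak (chr6:52221240-52221539, minus strand, 14 CpG), and for Hoxa5 the 250 bases before its start (chr6:52204588-52204837, minus strand, 28 CpG).
Hoxb3: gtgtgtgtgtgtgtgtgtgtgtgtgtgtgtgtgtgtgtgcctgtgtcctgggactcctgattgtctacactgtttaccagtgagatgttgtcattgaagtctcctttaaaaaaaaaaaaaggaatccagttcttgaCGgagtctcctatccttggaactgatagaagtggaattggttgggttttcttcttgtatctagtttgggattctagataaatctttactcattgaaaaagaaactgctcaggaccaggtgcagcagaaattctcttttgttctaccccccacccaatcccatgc
Hoxc4: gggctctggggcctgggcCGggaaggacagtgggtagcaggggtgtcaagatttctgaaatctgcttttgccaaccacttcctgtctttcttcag
Hoxa7: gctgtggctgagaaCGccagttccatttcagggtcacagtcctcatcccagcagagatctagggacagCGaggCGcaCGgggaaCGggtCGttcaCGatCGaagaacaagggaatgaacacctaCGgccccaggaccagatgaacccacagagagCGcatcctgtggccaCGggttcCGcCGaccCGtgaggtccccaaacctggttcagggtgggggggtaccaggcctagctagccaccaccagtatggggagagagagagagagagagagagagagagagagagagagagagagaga
Hoxa5: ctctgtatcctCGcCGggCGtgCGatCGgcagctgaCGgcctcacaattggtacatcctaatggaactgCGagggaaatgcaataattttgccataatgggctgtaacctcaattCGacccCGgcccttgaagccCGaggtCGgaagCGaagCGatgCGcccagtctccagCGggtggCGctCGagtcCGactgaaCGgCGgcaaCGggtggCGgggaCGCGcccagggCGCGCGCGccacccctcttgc
Runs of short repeats stand out in Hoxb3 (gt) and Hoxa7 (ga), and none of that length in the CpG-dense Hoxa5 stretch. Over all Hox start peaks, 17 of 59 summits (28.8%) fell in bases that the reference masks as repeats, against 12.8% of all start peaks and 35.7% of all peaks. The share of all start peaks ran from 4.38% to 22.8% by library. It was lowest in WT TE (4.38% to 9.38%), which held 1 of the 59 Hox peaks. In WT TM replicate 1, which held the Hoxa7 peak and one of the Hoxb3 peaks, 0 of 6 Hox summits were masked. The Hoxb3 summit of that library (chr11:96324124) lies past the end of the printed stretch. This measure was added after the data were seen, and the part of repeats in these peaks was not tested.

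Hoxc8, a gene of thoracic identity in the trunk, had the most libraries with a start peak, 6 of 16. Fold enrichment was 8.86 in WT TM replicate 2, 7.05 in TPdh-/- TM replicate 4, 3.92 in TPdh-/- TM replicate 1 and 3.71 in TPdh-/- TM replicate 3. In TPdh-/- TE it was 3.76 in replicate 3 and 7.02 in replicate 4, and no WT TE library had one. The −log10 q values of the same peaks were 9.44, 7.30, 2.39, 2.05, 2.09 and 6.74, and their pileups 11, 8, 4, 4, 4 and 10 fragments. The peaks of 5 libraries merged into 1 region around the first start, 551 bp long, and it was the only one in the clusters held by more than 3 libraries. The peak of TPdh-/- TE replicate 4 lay apart, at a second start of the gene. The groups overlapped: 3 of 4 TPdh-/- TM libraries against 1 of 4 WT TM libraries gave a p of 0.486 (Fisher's exact test, two-sided, adjusted p = 1).

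Hoxb3, which patterns the hindbrain, had a start peak in 5 libraries. Its fold enrichment was 4.67 in WT TM replicate 1, 3.72 in WT TM replicate 3, 5.01 in TPdh-/- TM replicate 2, 3.52 in TPdh-/- TE replicate 1 and 4.08 in TPdh-/- TE replicate 4. The −log10 q of these peaks was 3.15, 1.34, 3.51, 1.35 and 2.35, and pileups were 4 to 6 fragments. Only those of WT TM replicates 1 and 3 overlapped each other. The remaining peaks lay at other starts of the gene, whose 4 starts spread over 20443 bp.

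Hoxc4, a homeodomain factor that in B cells acts on the gene of the deaminase AID, also had a start peak in 5 libraries and was the only Hox gene with one in WT TE. The peak of WT TE replicate 2 had a fold enrichment of 4.4, a −log10 q of 2.41 and 7 fragments. Those of TPdh-/- TE replicate 3, TPdh-/- TM replicate 2 and TPdh-/- TM replicate 3 had folds of 3.97, 3.05 and 3.25, with 4, 3 and 3 fragments. WT TM replicate 1 had a peak at each of its 2 starts, with folds of 4.28 and 3.64. Peaks of 3 libraries merged into 1 region of 501 bp before the downstream start, and the pileups there were 3 or 4 fragments. The peak of WT TM replicate 1 joined them, and those of TPdh-/- TM replicates 2 and 3 did not overlap each other.

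**Figure D4:**
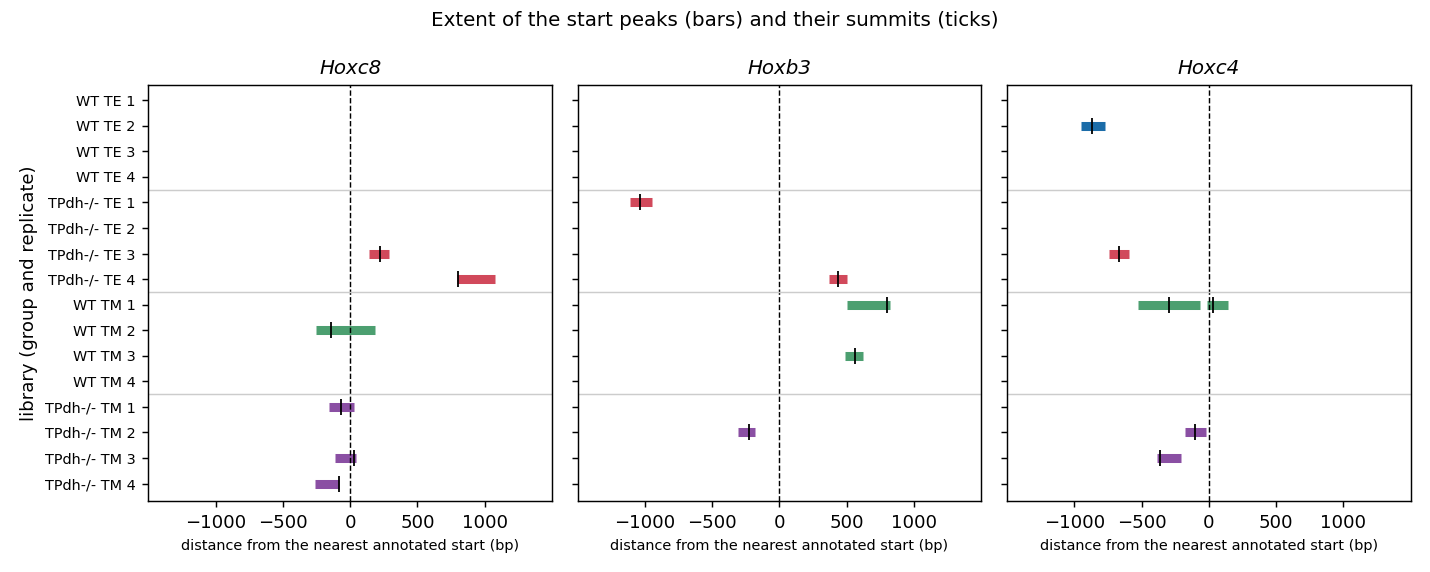
Extent of the start peaks of Hoxc8, Hoxb3 and Hoxc4 (bars, coloured by group) and their summits (ticks) by distance from the nearest annotated start in bp (x axis), one row per library. The Hoxc8 bars of 4 TM libraries and of TPdh-/- TE replicate 3 crowd within 300 bp of the start, while those of Hoxb3 and Hoxc4 are spread on both sides or upstream.

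In the Hoxa cluster (chromosome 6, 105291 bp) 0 of 44 gene and library pairs had a start peak in each TE group, 3 in WT TM and 8 in TPdh-/- TM. WT TM replicate 4 and TPdh-/- TM replicate 2 also had none, so the groups overlapped, and no Hoxa gene passed the test below. Away from the starts, each TPdh-/- TE library had 1 to 4 peaks in the Hoxa span and no WT TE library had any, where the whole genome held 12.4 to 29.7 and 0.865 to 7.26 peaks per Mb. Hoxa7, a gene of the trunk, held the highest Hox peak by both measures, in WT TM replicate 1, with a fold enrichment of 9.0, a −log10 q of 11.1 and 15 fragments. Its peaks in TPdh-/- TM replicates 1 and 4 had folds of 3.01 and 3.37 with 3 fragments each. Those 3 peaks did not overlap. Hoxa4 had a fold of 5.84 in WT TM replicate 3 and 6.35 in TPdh-/- TM replicate 4. Hoxa9, a regulator of blood stem and progenitor cells and a known leukaemia gene, had start peaks in TPdh-/- TM replicate 1 alone, with a highest fold of 5.13 and 6 fragments. Hoxa10 had one in WT TM replicate 2 alone, with a fold of 4.43. Hoxa2, Hoxa11 and Hoxa13 had one in a single TPdh-/- TM library each, with folds of 3.25, 3.26 and 4.02. Replicate 4 supplied 5 of the 8 TPdh-/- TM pairs.

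The Hoxb cluster (chromosome 11, 173941 bp) had the largest number in TPdh-/- TE, 10 of its 40 pairs, with 0 in WT TE, 3 in WT TM and 5 in TPdh-/- TM. In TPdh-/- TE replicate 3, Hoxb6 had a fold of 6.92 with 9 fragments, Hoxb4, which expands blood stem cells when overexpressed, a fold of 5.39 with 7, Hoxb2 a fold of 3.97 and Hoxb5 a fold of 3.31, each of the last pair with 4 fragments. Hoxb7 had folds of 5.64 in TPdh-/- TE replicate 1 and 7.02 in TPdh-/- TE replicate 4. Hoxb5 also had peaks in TPdh-/- TE replicate 2, with a fold of 5.31, and in TPdh-/- TM replicate 1, with 3.57. Hoxb6 recurred in TPdh-/- TM replicates 3 and 4 with folds of 4.82 and 5.48, and Hoxb2 in TPdh-/- TM replicate 1 with 3.12. Hoxb9 had its peak in WT TM replicate 1, with a fold of 5.05, and Hoxb13, a prostate factor at the far end of the cluster, in TPdh-/- TE replicate 1, with 4.93. Hoxb1 and Hoxb8 had none.

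The Hoxc cluster (chromosome 15, 115750 bp) had the highest share, 20 of 144 pairs (13.9%), and the only WT TE pair, with 7 in TPdh-/- TE, 5 in WT TM and 7 in TPdh-/- TM. Hoxc6, besides Hoxc8, held a strong peak, with a fold of 8.65, a −log10 q of 9.33 and 13 fragments in WT TM replicate 3, against 4.77 in TPdh-/- TE replicate 3 and 3.76 in TPdh-/- TM replicate 3. None of these Hoxc6 peaks overlapped, but those of the TM libraries lay next to each other before the same start. Hoxc9 had a fold of 4.93 in TPdh-/- TE replicate 3. Hoxc5 and Hoxc10 shared the peaks of WT TM replicate 1 (3.69) and TPdh-/- TE replicate 2 (3.99), and Hoxc5 had its own, with a fold of 3.64, in TPdh-/- TM replicate 1. Hoxc11, Hoxc12 and Hoxc13, a gene needed for hair, had none and are all CpG-rich.

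The Hoxd cluster (chromosome 2, 96833 bp) had 10 of 144 pairs (6.94%), 5 in each TPdh-/- group and 0 in each WT group. Hoxd3 and Hoxd4 shared a peak with a fold of 5.34 in TPdh-/- TE replicate 1, and in TPdh-/- TE replicate 3 they had separate ones with folds of 4.57 and 3.05. Hoxd8 had a fold of 3.97 in TPdh-/- TE replicate 4. In TPdh-/- TM replicate 2, Hoxd1, Hoxd10 and Hoxd11 had folds of 3.03, 3.14 and 3.96, and in TPdh-/- TM replicate 3, Hoxd11 and Hoxd12 had 4.06 and 4.88. None of these peaks held more than 7 fragments. Hoxd9 and Hoxd13, a gene of digit formation, had none. TPdh-/- TE replicate 2 and TPdh-/- TM replicates 1 and 4 had no Hoxd start peak either, so the groups overlapped, and no Hoxd gene passed the test below. Anywhere in the Hoxd span, WT TE libraries had 0 or 1 peak and TPdh-/- TE libraries 0 to 5. WT TM libraries had 0 to 4 and TPdh-/- TM libraries 1 to 7. In the same order, the whole genome held 0.865 to 7.26, 12.4 to 29.7, 5.03 to 20.7 and 22.7 to 32.7 peaks per Mb.

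**Figure D5:**
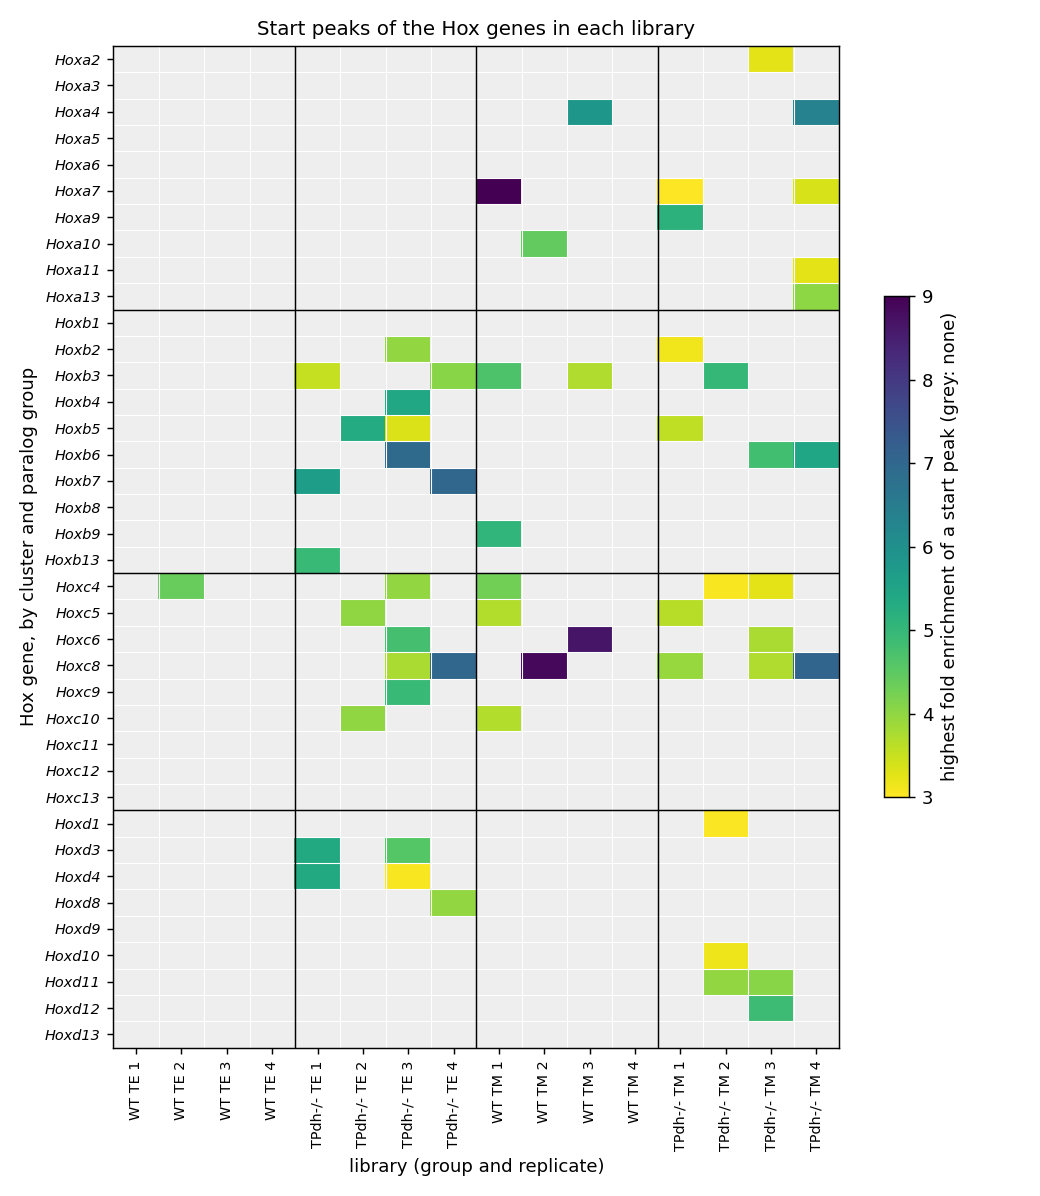
Highest fold enrichment of a start peak (colour) for 38 of the 39 Hox genes (rows, by cluster and paralog group) in each of the 16 libraries (columns, by group), with grey where there was none. 58 of 608 cells are coloured, 1 of them in the 4 WT TE columns, and no gene fills the 4 columns of any group.

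By position in the clusters, the central genes (paralog groups 4 to 8) had a start peak in 14.2% of pairs, the anterior ones (groups up to 3) in 9.38% and the posterior ones (groups 9 to 13) in 5.08%. The corresponding numbers of genes with a peak in any library were 12 of 15, 6 of 8 and 11 of 16. Among paralog groups, 4 and 7 were highest, with 10 of 64 and 5 of 32 pairs, and 12 and 13 lowest, with 1 of 32 and 2 of 64. These are descriptions of correlated neighbours, not a tested trend.

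Between the genes the clusters were not empty of peaks. The 4 spans, 491815 bp from the first to the last Hox gene, held 167 peaks over the 16 libraries, 57 of them at a Hox start. The density of peaks was a median 1.2 times that of the genome (0 to 1.87) and above it in 13 libraries. Merging overlapping peaks gave 142 regions, and 122 of them (85.9%) were found in 1 library, 17 in 2, 2 in 3 and the Hoxc8 region in 5. Of 43 non-coding genes in the spans, 34 had a start peak in some library and none in more than 4. The 7 miRNA genes among them included 5 with one.

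The nearest protein-coding genes outside the clusters, 8753 to 894119 bp away, were held in more libraries. Of 16 flanking protein-coding genes, up to the second on each side, 14 had a start peak, in 35.2% of pairs against 9.46% for the Hox genes. Cbx5, which encodes the heterochromatin protein HP1 alpha and lies 154692 bp from the Hoxc cluster, had one in 13 libraries, with a fold of up to 9.69. Hnrnpa3, 894119 bp from Hoxd, had one in 11, Atp5g2, 248751 bp from Hoxc, in 9, and Hibadh, 285348 bp from Hoxa, and Mtx2, 60661 bp from Hoxd, in 8 each. The homeobox neighbours Evx1 and Evx2 had one in 0 and 1 libraries, and Calcoco2 in 0.

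The comparisons ask whether loss of the complex, or the choice between effector and memory fate, opened or closed Hox promoters. Each gene was tested by the number of libraries with a start peak in 2 groups of 4 (Fisher's exact test, two-sided) over the 16463 protein-coding genes with a start peak anywhere, 29 of them Hox genes. A gene was called at an unadjusted p under 0.05, which in this exact test needs 4 libraries against 0 and gives p = 0.0286. No Hox gene was called in any of the 4 comparisons, and the smallest p of a Hox gene was 0.429 in each (Fisher's exact test). No gene of any kind passed after Benjamini-Hochberg adjustment, where the smallest p was 1 (Fisher's exact test).

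In TPdh-/- TM against WT TM, 0 of 29 Hox genes were called, against 0.808% of all genes tested (133, all with more TPdh-/- TM libraries). 15 Hox genes had more TPdh-/- TM than WT TM libraries, 4 had fewer and 10 had equal numbers, and over all tested genes these were 9680, 2427 and 4356. The median difference was 1 library for both sets. In TPdh-/- TE against WT TE, 0 of 29 were called against 0.377% of all genes (62, of which 46 had more WT TE libraries). 15 Hox genes had more TPdh-/- TE libraries, none had fewer and 14 had equal numbers, against 5660, 4487 and 6316 over all tested genes. Hoxb3, Hoxb5, Hoxb7, Hoxc8, Hoxd3 and Hoxd4 had 2 TPdh-/- TE libraries against 0, each with p = 0.429 (Fisher's exact test).

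In WT TM against WT TE, 0 of 29 were called against 0.364% of all genes (60, of which 58 had more WT TE libraries). 9 Hox genes had more WT TM libraries, none had fewer and 20 were equal, against 4257, 5063 and 7143 over all tested genes. In both comparisons with WT TE a Hox gene could hardly have fewer, since 1 gene and library pair in all was held there. In TPdh-/- TM against TPdh-/- TE, 0 of 29 were called against 0.626% of all genes (103, of which 97 had more TPdh-/- TM libraries). 14 Hox genes had more TPdh-/- TM libraries, 10 fewer and 5 equal, against 8667, 3567 and 4229 over all tested genes. With 0.364% to 0.808% of genes called, fewer than 1 call was to be had among 29 genes, so the absence of Hox calls does not set them apart. The comparisons share groups and are not independent of each other.

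The genes of proteins that act with or upon Hox genes had start peaks more often than the 20.9% of pairs of all protein-coding genes, and nearer to the 33.9% of CpG-rich ones. Of the Polycomb genes, which keep Hox clusters silent, all 20 had one, in 35.9% of pairs, Ezh2 (the methyltransferase) in 12 libraries, Rnf2 and Jarid2 in 10 each and Cbx2 in 1. The 13 Trithorax and activator genes were at 28.8%, with Kmt2a, which encodes MLL1, in 7 libraries and Dot1l in 0. Mllt1, which encodes a partner of MLL fusions, was the only gene of these lists to be called, with 4 TPdh-/- TM against 0 TPdh-/- TE libraries (p = 0.0286, Fisher's exact test, adjusted p = 1), in a comparison where 0.626% of all genes were called. Of the 9 Hox cofactors, DNA-binding partners of the Pbx, Meis and Pknox families, 8 had one, in 33.3% of pairs, from Pbx4 in 10 libraries to Pbx2 in 0.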

How the data were processed

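ATAC-seq peak lists of 16 libraries were analysed. Per the study's methods and the submitters' processing notes, the authors trimmed reads with Trimmomatic, aligned them to GRCm38 with BWA MEM 0.7.17, removed reads with other or split alignments and reads in blacklisted regions, and called peaks with MACS2 2.2.7.1 on paired fragments with its mouse genome size, the only calling options given. Each deposited list belongs to 1 library. The authors deposited for each peak a fold enrichment (a ratio of pileup to local background), a −log10 p-value, a −log10 q-value and a score. Lists were not scaled between libraries. Reads were not analysed here, so depth was taken from the lists.

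Samples were grouped by their titles. Peaks were matched to all transcript starts of GENCODE M21 protein-coding genes within 1000 bp, with Python 3.11.15, numpy 2.4.6, pandas 2.3.3 and scipy 1.17.1. Fold and p-value were solved for the summit pileup and background, on the assumption that the fold adds 1 to both and that p is a Poisson tail, and both steps were tested on simulated data. The lowest background of a list was its background coverage. Precision is limited by 4 libraries per group and by pileups of a few fragments. Presence was compared by Fisher's exact test with Benjamini-Hochberg adjustment over 16463 genes. CpG content and repeat masking were read from GRCm38.p6, the authors' build.

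Hox genes were named with values in each library where at least 4 libraries held a start peak, where called, or where the peak was highest by fold or −log10 q, and genes never held were named. A few items are counted in the totals and not reported here by name. The remaining Hox genes are given with their highest fold. Members, lists and the naming rule were chosen with earlier results of these data known. Alternatives were other windows, the summit alone, the gene 5' end alone, stricter peaks, equal-sized lists, leaving out each library and a replicate block.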

Additional observations from a re-analysis of the deposited data

Results flagged for a closer look

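In groups of 4 libraries, 7 measures were examined for a library far from the others of its group (Dixon's test), which made 28 combinations, and 5 passed. Chance flags about 1 in 20 groups. Counts this small pass whenever 3 libraries tie, as they did in all 5. WT TE replicate 2 stood apart with 1 Hox gene with a start peak, where the other WT TE libraries had 0, and the same Hoxc4 peak gave it 1 Hoxc gene and a Hox start window density of 1.08 times the genome. WT TM replicate 4 had 0 Hoxa genes with a start peak, where the others had 1 each. TPdh-/- TM replicate 1 had 2 Hoxb genes, where the others had 1 each.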

How the results depend on the processing

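No Hox gene was called in any comparison under any alternative, including each left-out library. These p-values say little about stability, since only 4 against 0 libraries can pass, or all against none where 1 was left out. Over all genes, calls rose in each left-out design, from 133 to between 153 and 358 in TPdh-/- TM against WT TM (358 without WT TM replicate 1), from 62 to between 92 and 198 in TPdh-/- TE against WT TE, from 60 to between 88 and 215 in WT TM against WT TE and from 103 to between 147 and 293 in TPdh-/- TM against TPdh-/- TE. In the replicate block, an exact sign test on 4 pairs, the count of called Hox genes was also 0, and no gene could pass, because 4 pairs are too few to reach 0.05. Same-numbered libraries correlated at -0.101 to 0.225 in their deviations. Libraries of different numbers were not compared in this way, so these values cannot tell whether the numbers pair the libraries.

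The mean number of Hox genes with a start peak moved with the peak criteria. Within 500 bp it was 3.25 in TPdh-/- TE and 1.75 in WT TM. Within 2000 bp it was 0.75 in WT TE and 9.75 in TPdh-/- TM. With the 5' end of the gene alone it was 3.5 in TPdh-/- TE and 4 in TPdh-/- TM. At a −log10 q of at least 5 it was 0.75 in TPdh-/- TE, 0.75 in WT TM and 0.50 in TPdh-/- TM, and at a fold of at least 5 it was 2, 1.25 and 1.25. With equal-sized lists it was 0, 1 and 0, so both criteria on peak strength and the equal-sized lists ended or turned the difference between the TM groups. Leaving out each library gave 0 to 0.333 in WT TE (0 without replicate 2), 4 to 6.33 in TPdh-/- TE, 1.67 to 3.67 in WT TM (1.67 without replicate 1) and 6 to 6.67 in TPdh-/- TM. At a −log10 q of at least 5, Hoxc8 was held by 3 libraries and Hoxb3 and Hoxc4 by 0. With equal-sized lists Hoxc8 was held by 1. With the 5' end of the gene alone Hoxc8 was held by 5, Hoxb3 by 2 and Hoxc4 by 1. The recurrence of Hoxb3 and Hoxc4 thus rests on weak peaks and on counting every annotated start. Over the 16 libraries together, Hox genes had a lower share of pairs than all genes under all 7 alternatives (0.641% against 3.58% with equal-sized lists, 13.5% against 24.9% within 2000 bp). The equal-sized lists held only 4 Hox pairs, and in WT TM the Hox share was then the higher, 2.56% against 1.57%. The causes were not tested.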
